A study of Homo sapiens with 32 samples.

Results

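BNIP3, BNIP3L, FUNDC1, FKBP8, BCL2L13, PHB2, PINK1 and OPTN are 8 human genes whose proteins mark mitochondria for removal by autophagy. Their protein-coding rows were taken by symbol from the count tables, 1 row per gene, so they are 8 of the 19815 protein-coding genes and of the 60554 annotated genes measured. RNA-Seq covered 32 libraries of 2 breast cell lines, MCF10A (immortalised, from non-tumour breast epithelium) and MDA-MB-231 (from a triple-negative carcinoma), with 16 libraries each. Cells of each line were kept in normoxia (N), in hypoxia at 0.5% O2 for 24 hours (H), in normoxia with PP242 at 2.5 µM for 3 hours (NPP), or in hypoxia with the same PP242 treatment (HPP). PP242 inhibits the mTOR kinase and was dissolved in DMSO, and per the study's methods the untreated cells received an equal amount of this solvent. The labels name no introduced allele or transgene. The MCF10A medium held EGF, hydrocortisone, cholera toxin and insulin that the MDA-MB-231 medium did not. Total mRNA (T) and polysomal mRNA from a sucrose gradient (P) were sequenced for each condition, which gave 8 groups per line with 2 biological replicates each. The T and P libraries of the same line, condition and replicate share a number in their titles, which the labels do not explain further. The labels do not say how the cultures of a group were separated, so the p-values measure the spread between these libraries.

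Mitophagy is the selective engulfment of mitochondria by autophagosomes. BNIP3 and BNIP3L (also called NIX) are related outer-membrane proteins that bind ATG8-family proteins on the forming autophagosome, and both genes are known targets of the hypoxia-inducible factor HIF1. FUNDC1, FKBP8 and BCL2L13 are further outer-membrane receptors, and PHB2 is an inner-membrane receptor exposed when the outer membrane breaks. PINK1 is a kinase that accumulates on damaged mitochondria and recruits the ubiquitin ligase Parkin, and OPTN is an adaptor that links ubiquitin-tagged mitochondria to ATG8 proteins.

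The promoter of BNIP3 is shown because BNIP3 and BNIP3L gave the largest changes with oxygen among the 8 genes. RefSeq promoters (GRCh38.p14) were matched for 5 of the 8 genes, namely BNIP3, FUNDC1, BCL2L13, PHB2 and OPTN, and the 250 bases before each start were searched on both strands for ACGTG and GCGTG, the cores of hypoxia response elements. BNIP3 held 6 matches in 5 places, since the palindrome CACGTG counts on both strands, and FUNDC1, BCL2L13, PHB2 and OPTN held 0. Only 1 start per gene was searched, and the windows of BCL2L13 and OPTN lie within the annotated span of the gene. Other starts were not searched. At least 1 match was present in 50.9% of the 14419 protein-coding promoters searched, and 3 or more in 10.2%. The stretch with the BNIP3 matches covers chr10:131982011-131982078 on the minus strand, from 155 to 88 bases before the start, and capitals mark the matches. Beside it stand 25-base stretches around the match nearest to the start in LDHA (chr11:18394480-18394504) and CA9 (chr9:35673900-35673924), both on the plus strand, the genes whose levels followed BNIP3 most closely (given at the end). A match is a string of letters and not a shown binding site.
BNIP3: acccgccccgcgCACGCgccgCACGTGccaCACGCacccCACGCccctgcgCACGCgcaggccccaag
LDHA: tgggttcccgCACGTccgccggccc
CA9: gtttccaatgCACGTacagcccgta

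In GENCODE release 44 on GRCh38, BNIP3 lies on chromosome 10 from 131967684 to 131981967 on the minus strand, and BNIP3L on chromosome 8 from 26383054 to 26505636 on the plus strand. PNMA2 overlaps BNIP3L in part on the opposite strand. Genes without a symbol overlap BNIP3, FKBP8 and PHB2 on their opposite strands, and CCDC3 is among those that overlap OPTN. The share of counts from these genes was not measured. Of the rows named as copies of BNIP3, 39 pseudogenes together held at most 1.54% of the summed count in any library. PINK1 (chromosome 1, 20633458 to 20651511) overlaps PINK1-AS on the opposite strand, and the library protocol does not state strand, so reads of such overlapping genes cannot be told apart. PINK1-AS held 0.62% to 3.22% of their summed count.

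Library totals ran from 30302497 to 46032327 counts in MCF10A and from 18340916 to 39536845 in MDA-MB-231. Levels are given as CPM (counts scaled to a common library size) with TMM factors over all 32 libraries. CA9, a carbonic anhydrase induced by hypoxia, ran from 8.86 to 29.1 CPM over the N and NPP libraries of MCF10A (n = 8) and from 577 to 1539 CPM over its H and HPP libraries (n = 8). For MDA-MB-231 it ran from 0.0476 to 0.917 and from 11.1 to 31.0 CPM, so every library matched its oxygen label.

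Markers of the lines were only in part as the labels would have them. The basal keratins KRT5, KRT14 and KRT17 were higher in every MCF10A library than in any MDA-MB-231 library (KRT5 at 1407 to 3838 against 0 to 0.238 CPM). However, CDH1 (E-cadherin) and TP63, which define epithelial and basal cells, reached at most 0.424 and 0.265 CPM in MCF10A. DSG3 reached at most 1.93 CPM there, and CDH1, TP63, DSG3, LAMA3 and COL17A1 overlapped between the lines, so 3 of the 8 MCF10A markers set them apart. Of the 8 markers listed for MDA-MB-231, AXL and ZEB1 were higher in all of its libraries, VIM and MSN overlapped, and SPARC, CAV1, TGFBI and NNMT were higher in all MCF10A libraries. The 8 MCF10A markers summed to a median of 4386 CPM in MCF10A and 19.9 in MDA-MB-231, and the 8 MDA-MB-231 markers to 20204 and 5545. Within MCF10A, KRT14 and KRT17 were higher in every H and HPP library than in any N or NPP library. KRT14 ran from 542 to 1537 CPM over the N and NPP libraries and from 1845 to 4936 over the H and HPP ones, and KRT5, the most abundant by median, ran from 1407 to 3089 and from 1810 to 3838, which overlap. The line names below are those of the labels.

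Replicates of MCF10A differed more than those of MDA-MB-231, with a biological coefficient of variation of 0.325 against 0.15. In MCF10A T, replicate 2 was higher than replicate 1 in all 4 conditions for 6 of the 8 genes. The widest gap was FKBP8 in NPP, at 140 and 383 CPM, and PHB2 in the same libraries stood at 300 and 682. All 8 genes passed the filter on low counts in both lines.

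Per kilobase of the MANE Select transcript, PHB2 was the most abundant of the 8 in MCF10A N T, at 237 and 265 CPM per kb in replicates 1 and 2. FKBP8 (92.1 and 123) and BNIP3 (90.0 and 106.3) followed and overlapped each other, then PINK1 (71.8 and 80.9). BNIP3L (22.0 and 22.0) and OPTN (22.3 and 21.4) overlapped, above FUNDC1 (19.0 and 19.4) and BCL2L13 (8.20 and 10.3). In MDA-MB-231 N T the order was FKBP8, PHB2, BNIP3, BNIP3L, PINK1, OPTN, FUNDC1 and BCL2L13, with no overlap between neighbours. In H T, BNIP3 was first in both lines, at 454 and 675 CPM per kb in MCF10A, with 501 and 622 in MDA-MB-231.

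Hypoxia was compared with normoxia to ask which receptor mRNAs follow oxygen in each line and fraction. BNIP3 and BNIP3L rose in T and P of both lines, and PINK1 rose in MDA-MB-231 T. In bulk RNA, a lower level per cell and fewer cells with the mRNA cannot be told apart. The other 5 genes did not pass the test in any of these comparisons. A gene was called at an adjusted p under 0.05 in the quasi-likelihood test of edgeR over all tested genes. In MCF10A, 2 of the 8 genes were called in T, where 1.54% of 13124 genes were, and 2 in P, where 1.49% were. In MDA-MB-231, 3 were called in T and 2 in P, where 1.27% and 2.29% of 13510 genes were. The median log2FC of the 8 genes was 0.54 (T) and 0.42 (P) in MCF10A, with 0.30 and 0.28 in MDA-MB-231, beside medians of all genes between -0.07 and 0.01.

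BNIP3 in MCF10A T stood at 139 and 164 CPM in N and at 701 and 1041 in H. In P it stood at 226 and 169 CPM in N and at 1250 and 954 in H. The hypoxic libraries lay far above the normoxic ones in both fractions. The log2FC was 2.54 ± 0.36 in T (SE, 2 against 2 libraries, adjusted p = 0.0044) and 2.40 ± 0.36 in P (adjusted p = 0.0053). These were a 5.81-fold and a 5.30-fold rise. With only the libraries compared, the call in P was lost (adjusted p = 0.134, log2FC 2.48), where 6 of 12498 genes were called. The call in T was lost without either N T library (adjusted p = 0.103 without replicate 1 and 0.0811 without replicate 2), and in P without N P replicate 2 (0.0917), with log2FC still at 2.18 or more.

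BNIP3 in MDA-MB-231 T stood at 132 and 143 CPM in N and at 772 and 960 in H. In P it stood at 152 and 120 CPM in N and at 914 and 902 in H. In P both MDA-MB-231 libraries were below both MCF10A ones in N and in H, a difference that was not tested, and in T the hypoxic libraries overlapped. The log2FC was 2.64 ± 0.16 in T (adjusted p = 8.9e-07) and 2.75 ± 0.17 in P (adjusted p = 5.3e-07), and both calls held without any single library.

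BNIP3L in MCF10A T stood at 76.1 and 76.0 CPM in N and at 348 and 458 in H. In P it stood at 93.7 and 89.9 CPM in N and at 500 and 576 in H. The groups did not overlap, and log2FC was 2.42 ± 0.25 in T (adjusted p = 0.00076) and 2.47 ± 0.25 in P (adjusted p = 0.00062). Both calls held without any single library. With only the libraries compared, the call in P was lost (adjusted p = 0.0814, log2FC 2.55), where 6 of 12498 genes were called.

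BNIP3L in MDA-MB-231 T stood at 150 and 108.2 CPM in N and at 275 and 279 in H. In P it stood at 201 and 152 CPM in N and at 358 and 302 in H. Its hypoxic libraries were again above the normoxic ones, by a log2FC of 1.08 ± 0.19 in T (adjusted p = 0.010) and 0.91 ± 0.19 in P (adjusted p = 0.022). Leaving out H replicate 1, H replicate 2 or N replicate 2 raised the adjusted p above the threshold in each fraction, to between 0.0542 and 0.148 in T and between 0.0703 and 0.231 in P.

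**Figure D1:**
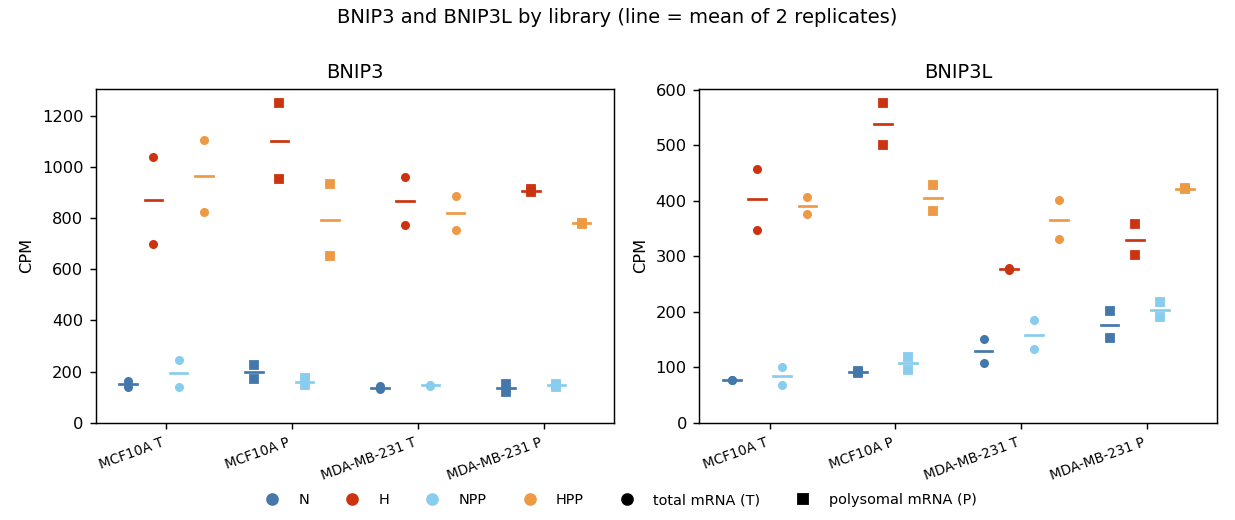
Levels of BNIP3 (left) and BNIP3L (right) in CPM in each of the 32 libraries, by line, fraction (circles T, squares P) and treatment (colours), with a bar at the mean of 2 replicates. The H and HPP libraries of each line and fraction lie above its N and NPP libraries for both genes, and normoxic BNIP3L is higher in MDA-MB-231 than in MCF10A.

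PINK1, the kinase of the Parkin pathway, was the third gene that passed the test. In MDA-MB-231 T it stood at 75.7 and 72.2 CPM in N and at 142 and 100 in H, a log2FC of 0.69 ± 0.16 (adjusted p = 0.048). In P it stood at 115 and 102.9 CPM in N and at 188 and 147 in H, a log2FC of 0.63 ± 0.16 (adjusted p = 0.053, and 0.012 by DESeq2). Both hypoxic libraries were above both normoxic ones in each fraction, but the call in T lay at the threshold. It was lost when the PINK1-AS count was added (adjusted p = 0.0551), and without N T replicate 1 (0.160), N T replicate 2 (0.237) or H T replicate 1 (0.269, log2FC 0.43). In MCF10A, PINK1 had a log2FC of 0.51 ± 0.37 in T and 0.50 ± 0.37 in P, which did not pass the test, with a 95% interval of -0.30 to 1.32 in T.

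OPTN, the ubiquitin adaptor, was higher in both H libraries than in both N libraries in each line and fraction, without passing the test. In MCF10A T it stood at 77.7 and 74.3 CPM in N and at 93.5 and 137 in H (log2FC 0.61 ± 0.23, adjusted p = 0.30). In MDA-MB-231 T it stood at 93.5 and 85.8 CPM in N and at 135 and 127 in H (log2FC 0.52 ± 0.16, adjusted p = 0.15). In P the MCF10A log2FC was 0.48 ± 0.23. The MDA-MB-231 value was 0.48 ± 0.16, and it rested on the H P libraries, with 0.18 (adjusted p = 0.60) without replicate 1 and 0.74 (adjusted p = 0.040, past the threshold) without replicate 2.

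PHB2, the inner-membrane receptor, had negative estimates throughout. In MCF10A P it stood at 674 and 468 CPM in N and at 422 and 337 in H (log2FC -0.67 ± 0.39, adjusted p = 0.55, and -0.27 without N P replicate 1). In MDA-MB-231 P it stood at 281 and 263 CPM in N and at 202 and 196 in H (log2FC -0.44 ± 0.16, adjusted p = 0.18). The hypoxic libraries were below the normoxic ones in both cases, and neither difference passed the test.

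The outer-membrane receptors FUNDC1, FKBP8 and BCL2L13 gave the smallest estimates in MDA-MB-231, between -0.04 and 0.08 on the log2 scale in T and P. FUNDC1 stood at 15.2 and 19.2 CPM in MDA-MB-231 H T against 15.7 and 17.3 in N T, a difference with a 95% interval of -0.37 to 0.44. The interval was -0.25 to 0.40 for FKBP8 and -0.28 to 0.31 for BCL2L13 in the same comparison. In MCF10A the intervals were wider, with -0.66 to 0.99 for FUNDC1 and -0.44 to 1.59 for FKBP8 in T, so values within those ranges were not excluded there.

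**Figure D2:**
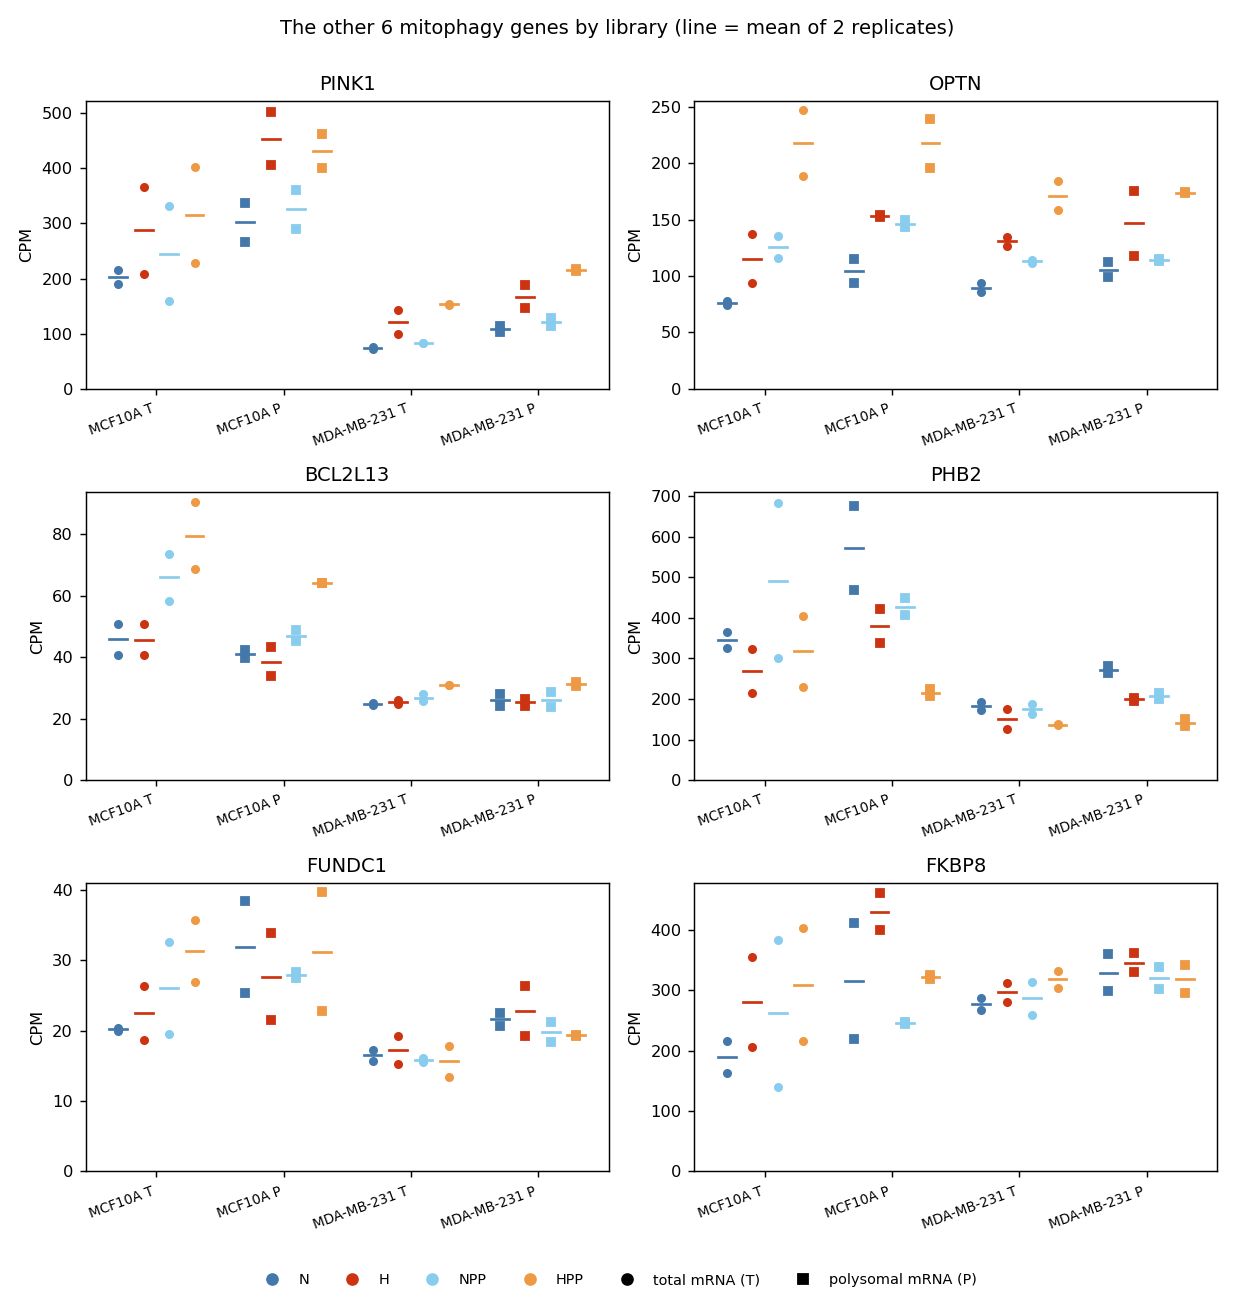
Levels in CPM of PINK1, OPTN, BCL2L13, PHB2, FUNDC1 and FKBP8 in each of the 32 libraries, drawn as in the plot of BNIP3 and BNIP3L levels, each on its own axis from 0. OPTN is highest in HPP in T of both lines, PHB2 in P is lowest in HPP in both lines, and the 2 MCF10A NPP T libraries lie far apart for PHB2 and FKBP8.

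PP242 in normoxia was compared with normoxia to ask whether mTOR inhibition alone moves these mRNAs. None of the 8 genes was called by edgeR in T or P of either line, and DESeq2 called 0 as well. At an unadjusted p under 0.05 there were 2 genes in MCF10A T, 1 in MCF10A P, 0 in MDA-MB-231 T and 1 in MDA-MB-231 P, where 9.54%, 13.3%, 10.3% and 13.6% of all genes passed that limit. Among all genes 0.648% (T) and 0.823% (P) were called in MCF10A, with 0.555% and 1.95% in MDA-MB-231. BNIP3 stood at 140 and 247 CPM in MCF10A NPP T and at 149 and 143 in MDA-MB-231 NPP T, against 139 and 164 in MCF10A N T and 132 and 143 in MDA-MB-231 N T. OPTN had the largest estimate, at 116 and 136 CPM in MCF10A NPP T against 77.7 and 74.3 in N T (log2FC 0.77 ± 0.23, adjusted p = 0.21).

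Hypoxia with PP242 was compared with normoxia and with hypoxia, to show what PP242 adds in hypoxic cells. Against N, BNIP3, BNIP3L and OPTN rose in T and P of both lines. PHB2 fell in P of both lines, BCL2L13 rose in MCF10A T, and PINK1 rose in T and P of MDA-MB-231. In MCF10A 4 genes were called in T (4 up) and 4 in P (3 up, 1 down), where 14.9% and 22.2% of all genes were. In MDA-MB-231 4 were called in T (4 up) and 5 in P (4 up, 1 down), where 13.2% and 19.4% were. The median log2FC of the 8 genes was 0.77 (T) and 0.52 (P) in MCF10A, with 0.56 and 0.45 in MDA-MB-231, against medians of all genes from -0.05 to 0.01. In MCF10A the line's own markers moved in the same libraries, with 3 of the 6 tested called up in T (median log2FC 1.39) and 4 in P (2.01), after medians of 1.10 and 1.46 with 0 called in H. Their part in the changes of the 8 genes was not tested.

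BNIP3 in MCF10A HPP stood at 825 and 1108 CPM in T and at 932 and 651 in P, a log2FC against N of 2.69 ± 0.36 (adjusted p = 0.00084) and 1.95 ± 0.35 (adjusted p = 0.0031). In MDA-MB-231 HPP it stood at 886 and 753 CPM in T and at 781.4 and 779.2 in P, a log2FC of 2.51 ± 0.16 (adjusted p = 1.1e-06) and 2.49 ± 0.16 (adjusted p = 7.2e-07). Against H, BNIP3 did not pass the test in any fraction. In P its HPP libraries were below its H libraries in both lines, by a log2FC of -0.46 ± 0.34 in MCF10A and -0.26 ± 0.15 in MDA-MB-231. Leaving out 1 library moved the MCF10A value to between -0.79 (without HPP P replicate 1) and -0.19 (without HPP P replicate 2).

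BNIP3L in MCF10A HPP stood at 407 and 375 CPM in T and at 427 and 381 in P (log2FC against N 2.39 ± 0.25 and 2.08 ± 0.25). In MDA-MB-231 HPP it stood at 401 and 330 CPM in T and at 421 and 422 in P (log2FC 1.44 ± 0.19 and 1.22 ± 0.19, adjusted p = 0.00042 and 0.00067). The BNIP3L levels of the lines overlapped in HPP in both fractions. Against H the estimates were positive in MDA-MB-231 (0.36 ± 0.19 in T and 0.31 ± 0.19 in P) and not in MCF10A (-0.03 ± 0.24 and -0.39 ± 0.24), and none passed the test.

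OPTN in MCF10A HPP stood at 189 and 247 CPM in T and at 196 and 240 in P, above all N and H libraries of the same fraction. The log2FC against N was 1.54 ± 0.23 in T (adjusted p = 0.0014) and 1.00 ± 0.23 in P (adjusted p = 0.0097). The call in P was lost without HPP P replicate 2 (adjusted p = 0.0757) or N P replicate 2 (0.0666) and with only the libraries compared (0.0682). In MDA-MB-231 HPP it stood at 184 and 158 CPM in T and at 174 and 174 in P, a log2FC of 0.87 ± 0.16 (adjusted p = 0.0033) and 0.68 ± 0.16 (adjusted p = 0.0088), the latter lost without HPP P replicate 1 (0.0669) or N P replicate 2 (0.0746).

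Against H, edgeR called 1 of the 8 genes in MCF10A T, OPTN, where 3.74% of genes were called. DESeq2 called 2, OPTN and BCL2L13 (log2FC 0.86, adjusted p = 0.010, against 0.80 ± 0.22 and 0.076 by edgeR), among 1042 of 13124 genes that DESeq2 called in all. The edgeR log2FC of OPTN was 0.93 ± 0.23 (adjusted p = 0.046), and the call was lost without any 1 of the 4 libraries, with log2FC from 0.71 to 1.21 and adjusted p from 0.129 to 0.456. In MCF10A P edgeR called 0 of the 8 (2 at an unadjusted p under 0.05, where 21% of all genes were, and 1 by DESeq2 among 1589 genes in all), where 6.5% of genes were called. The gene called by DESeq2 was BCL2L13. In edgeR it passed in P with the replicate number as a block (adjusted p = 0.049), among 891 genes in all. With a block within each fraction it passed in P (0.020, among 1951 genes) and T (0.023, among 1153 genes).

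PHB2 in MCF10A P stood at 225 and 206 CPM in HPP against 674 and 468 in N, a log2FC of -1.46 ± 0.39 (adjusted p = 0.021). In T it stood at 230 and 404 CPM in HPP against 327 and 365 in N, which overlap (log2FC -0.11 ± 0.38). The call in P was lost without HPP P replicate 1 (adjusted p = 0.0654), HPP P replicate 2 (0.143) or N P replicate 1 (0.190, log2FC -1.08).

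PHB2 in MDA-MB-231 P stood at 133 and 150 CPM in HPP against 281 and 263 in N, a log2FC of -0.97 ± 0.16 (adjusted p = 0.0012). In T it stood at 138 and 136 CPM in HPP against 172 and 193 in N (log2FC -0.48 ± 0.16, adjusted p = 0.064, and 0.038 by DESeq2). Against H it was the 1 gene of the 8 called in MDA-MB-231 P, where 11.5% of genes were, with a log2FC of -0.53 ± 0.16 (adjusted p = 0.048) and no call without any 1 of the 4 libraries (adjusted p from 0.132 to 0.295). In MDA-MB-231 T edgeR called 0 of the 8 against H (1 at an unadjusted p under 0.05, where 18.5% of all genes were, and 0 by DESeq2), where 3.78% of genes were called.

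BCL2L13, the receptor least abundant per kilobase in N T of both lines, stood at 68.5 and 90.4 CPM in MCF10A HPP T against 40.7 and 50.8 in N T and 40.5 and 50.8 in H T. The log2FC against N was 0.82 ± 0.22 (adjusted p = 0.030), and the call was lost without HPP T replicate 2 (0.236), N T replicate 1 (0.239) or N T replicate 2 (0.0979), with no filter beyond 1 read (0.0788) and with only the libraries compared (0.0941). In P it stood at 64.0 and 63.9 CPM in HPP against 42.2 and 39.8 in N (log2FC 0.58 ± 0.22, adjusted p = 0.082). PINK1 in MDA-MB-231 HPP stood at 152 and 154 CPM in T and at 214 and 218 in P, a log2FC against N of 0.99 ± 0.16 (adjusted p = 0.0015) and 0.95 ± 0.16 (adjusted p = 0.0010). FUNDC1 and FKBP8 did not pass the test in any comparison of treatments.

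**Figure D3:**
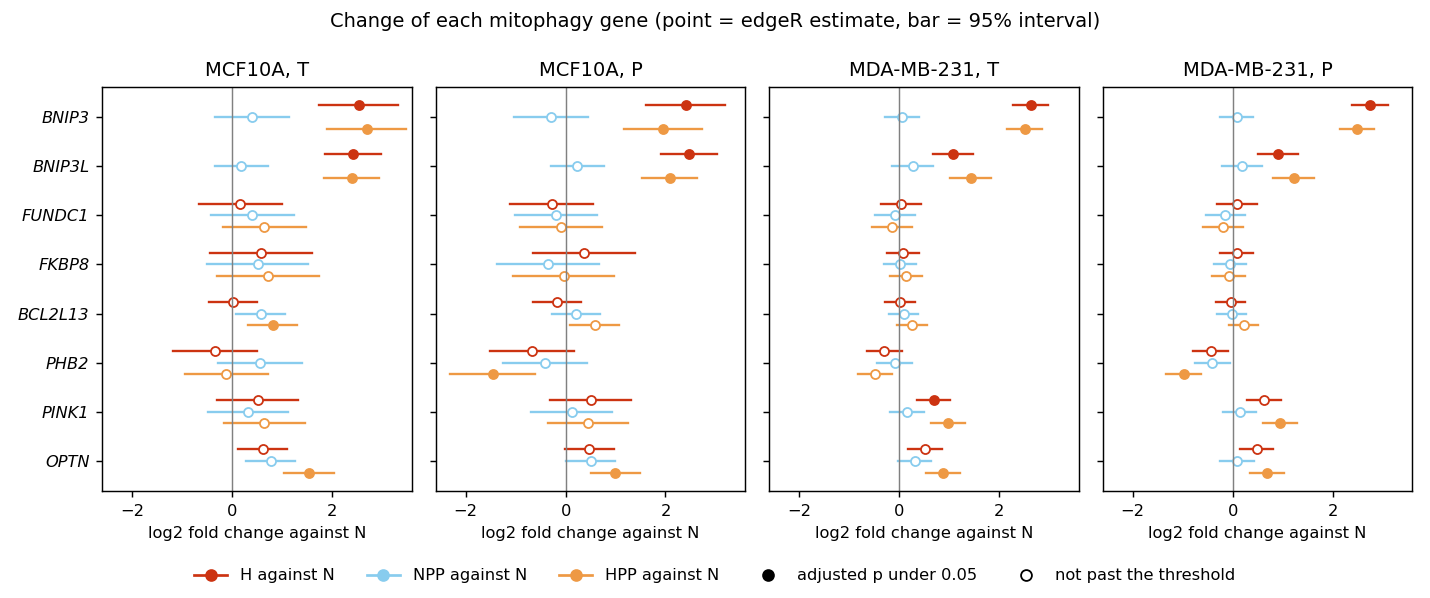
log2 fold change against N of each gene in H, NPP and HPP (colours), by line and fraction, with the edgeR estimate as a point, its 95% interval as a bar, and a filled point where the adjusted p was under 0.05. BNIP3 and BNIP3L are filled in H and HPP in all 4 panels, no NPP point is filled, and PHB2 is filled below 0 in HPP in both P panels.

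Translation efficiency (Te) was the log2FC in P minus the log2FC in T, tested as an interaction to ask whether polysomal mRNA moved apart from total mRNA. None of the 8 genes was called by edgeR or DESeq2 in any of the 6 comparisons, and 1 gene in 1 comparison had an unadjusted p under 0.05, PHB2 in MCF10A HPP, where 3.3% of all genes did. The fit took the 16 libraries of a line as independent, and with the shared title number as a block the count stayed at 0 in all 6 comparisons. Among all genes 0% were called in MCF10A in H, 0% in NPP and 0% in HPP, and 0.0148%, 0.34% and 0.696% in MDA-MB-231. An unadjusted p under 0.05 was reached by 0.175% (H), 2.26% (NPP) and 3.3% (HPP) of all genes in MCF10A. In MDA-MB-231 the shares were 1.33%, 2.18% and 3.36%. With so few low p-values, the lack of a call does not show equal change in T and P. The Te estimates of BNIP3 and BNIP3L in H were -0.13 ± 0.48 and 0.05 ± 0.34 in MCF10A. They were 0.11 ± 0.22 and -0.17 ± 0.27 in MDA-MB-231, and differences within these errors were not excluded.

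PHB2 had the most negative Te estimate of the 8 genes in HPP in both lines, at -1.35 ± 0.54 in MCF10A (adjusted p = 0.98) and -0.49 ± 0.23 in MDA-MB-231 (adjusted p = 1). The ratio of its mean CPM in P to that in T was 1.65 in N, 1.41 in H, 0.87 in NPP and 0.68 in HPP in MCF10A, beside 1.49, 1.32, 1.19 and 1.04 in MDA-MB-231. By these means of 2 libraries the order of the 4 conditions was the same in both lines. The replicates of MCF10A lay far apart. In NPP, P and T stood at 406 and 300 CPM in replicate 1 and at 448 and 682 in replicate 2. In HPP they stood at 225 and 230 and at 206 and 404. Taken alone, replicate 2 of MDA-MB-231 had H and NPP in the other order. Its P and T libraries stood at 195.7 and 175.5 CPM in H and at 215.1 and 186.7 in NPP. In HPP the Te estimates of all 8 genes were below 0 in both lines, though none was called. Their medians were -0.64 (MCF10A) and -0.12 (MDA-MB-231), against 0.05 and 0.06 over all genes. With 1 library left out, the PINK1 estimate for MCF10A reached 0.26. For MDA-MB-231 the same step brought BNIP3 (up to 0.16), FUNDC1 (0.13), PINK1 (0.05), BCL2L13 (0.024) and BNIP3L (0.007) above 0. FKBP8, PHB2 and OPTN stayed below 0 in both lines.

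**Figure D4:**
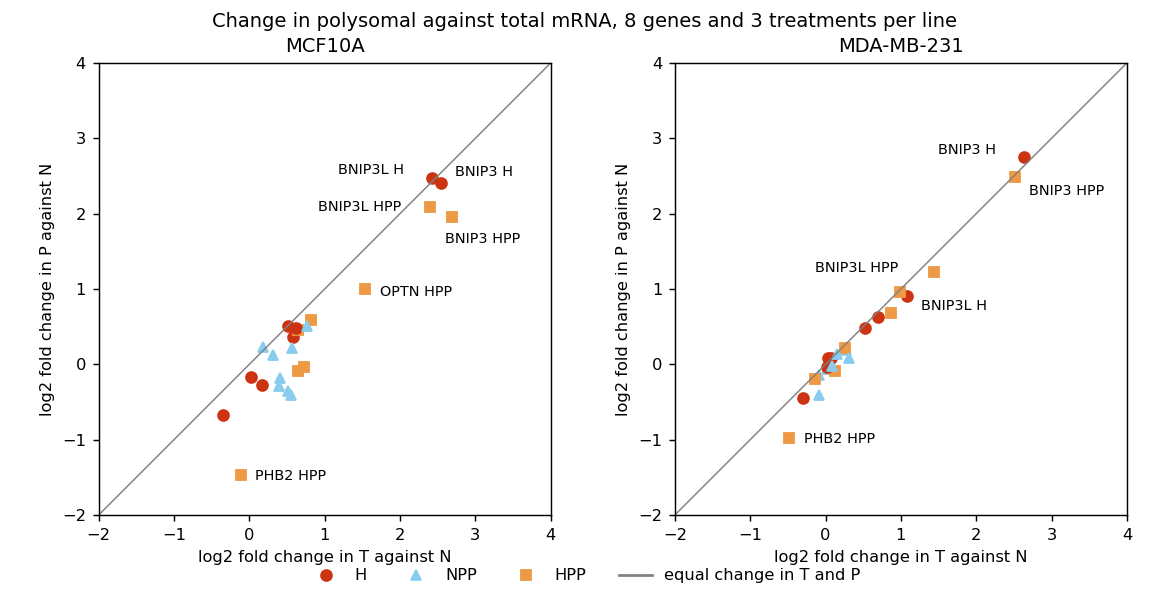
log2 fold change in P against that in T, both against N, for the 8 genes in H, NPP and HPP of each line, with a line of equal change. BNIP3 and BNIP3L lie near the line in H, and PHB2 in HPP lies below it in both lines (-0.11 in T and -1.46 in P in MCF10A).

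The lines were compared to ask whether their levels and responses differ. In N T, 4 of the 8 genes differed, where 40.7% of 14298 genes did. BNIP3L was higher in MDA-MB-231 (log2FC 0.77 ± 0.23, adjusted p = 0.0094), and PINK1 (-1.46 ± 0.31, adjusted p = 0.00073), BCL2L13 (-0.89 ± 0.19, adjusted p = 0.00072) and PHB2 (-0.92 ± 0.31, adjusted p = 0.020) were lower. The BNIP3L call was lost without MCF10A N T replicate 1 or 2 or MDA-MB-231 N T replicate 1 (adjusted p from 0.0585 to 0.171), and without the last of these the log2FC was 0.49. The PHB2 call was lost without MCF10A N T replicate 2 or MDA-MB-231 N T replicate 1 or 2 (0.0611 to 0.107), while those of PINK1 and BCL2L13 held without any single library. Line, medium, count table and barcode series go together in these samples and cannot be told apart.

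The response of BNIP3L to hypoxia in P was smaller in MDA-MB-231 than in MCF10A by 1.65 ± 0.32 on the log2 scale (log2 difference -1.65, adjusted p = 0.022). It was the 1 gene of the 8 called there, where 0.329% of genes were. In T the difference was -1.31 ± 0.32 (adjusted p = 0.11), with 0 of the 8 called by edgeR, 1 at an unadjusted p under 0.05 (7.47% of all genes) and 1 by DESeq2 (of 130 genes in all), where 0.266% of genes were called. For HPP against N it was -0.86 ± 0.32 in T and -0.88 ± 0.32 in P, again with 0 of the 8 called by edgeR, 1 at an unadjusted p under 0.05 (15.4% and 16.7% of all genes) and 1 by DESeq2 (of 747 and 929 genes in all) in each, where 3.31% and 3.6% of genes were called. The gene at an unadjusted p under 0.05 was BNIP3L in every case. The call in P was lost without 6 of the 8 libraries in turn (MCF10A N P replicates 1 and 2, MCF10A H P replicate 2, MDA-MB-231 N P replicate 1 and MDA-MB-231 H P replicates 1 and 2), with adjusted p from 0.0647 to 0.210 and differences from -1.78 to -1.43.

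The responses of BNIP3 to hypoxia differed between the lines by 0.13 ± 0.37 in T and 0.26 ± 0.37 in P on the log2 scale, with a 95% interval of -0.65 to 0.91 in T. The BNIP3L estimate in T, which was not called, lay outside that interval, and the genes were not tested against each other.

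Other genes of the pathway came from a list of 59 genes in 7 classes, of which 56 were tested in MCF10A and 57 in MDA-MB-231. In H none of them was called in MCF10A T or P or in MDA-MB-231 T, and 1 was called in MDA-MB-231 P, beside 1.54%, 1.49%, 1.27% and 2.29% of all genes, so 1 of 57 is near the background. The latter was TOMM7, a subunit of the outer-membrane import complex that stabilises PINK1, at 32.7 and 30.1 CPM in N and 58.1 and 63.1 in H (log2FC 0.95 ± 0.20, adjusted p = 0.023). The median log2FC of the list in H lay between -0.17 and -0.04, beside the medians of all genes given above. Of the 4 further BNIP family genes listed, 2 were tested in MCF10A and 3 in MDA-MB-231, and none was called in H.

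In NPP 1 gene of the list was called in each of MCF10A P, MDA-MB-231 T and MDA-MB-231 P, beside 0.823%, 0.555% and 1.95% of all genes. GABARAPL1, an ATG8 protein that the receptors bind, rose in MCF10A P from 6.12 and 8.64 CPM in N to 20.8 and 30.1 (log2FC 1.80 ± 0.31, adjusted p = 0.023). SQSTM1 (p62), a ubiquitin adaptor like OPTN, rose in MDA-MB-231 T (0.82 ± 0.14, adjusted p = 0.017) and P (0.80 ± 0.14, adjusted p = 0.0048).

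In HPP 4 of the 56 genes rose and 4 fell in MCF10A T, and 3 rose and 8 fell in P, beside the 14.9% and 22.2% of all genes called. In MDA-MB-231, 8 of 57 rose and 1 fell in T, and 8 rose and 7 fell in P, beside 13.2% and 19.4%. Nothing particular to the list is read from these counts. GABARAPL1 rose in T and P of both lines, from 7.88 and 7.97 CPM in N to 26.6 and 50.1 in MCF10A T (log2FC 2.28 ± 0.31) and from 19.2 and 14.6 to 39.7 and 35.7 in MDA-MB-231 T (1.09 ± 0.21). MIEF2, an outer-membrane recruiter of the fission GTPase DRP1, rose in all 4 as well (log2FC 1.28 to 1.93). PGAM5, the phosphatase that acts on FUNDC1, fell in all 4, most in MCF10A P, from 49.4 and 54.5 CPM in N to 8.63 and 5.16 (log2FC -2.96 ± 0.36, adjusted p = 0.00037) and least in MDA-MB-231 T (-0.82 ± 0.25, adjusted p = 0.046). SRC, a kinase that acts on FUNDC1, fell in MCF10A T (-1.26 ± 0.31) and P (-1.22 ± 0.31), and BCL2 fell in MCF10A P (-1.63 ± 0.52). SQSTM1 rose in MDA-MB-231 T (1.03 ± 0.14) and P (1.07 ± 0.14) and in MCF10A P (1.22 ± 0.30).

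The 5 genes whose log2 CPM was most like that of BNIP3 over the 32 libraries, after subtracting the mean of each line and fraction, were LDHA (Pearson r = 0.977), CA9 (0.971), ALDOC (0.959), P4HA1 (0.956) and EFNA3 (0.948), among 12374 genes tested in both lines. LDHA and ALDOC are glycolytic enzymes, P4HA1 is a collagen prolyl hydroxylase subunit, and EFNA3 is an ephrin ligand. The libraries share lines, treatments and library preparation, and they fell into a normoxic and a hypoxic cluster that carry most of these values. Within the 16 hypoxic libraries r was 0.699 for LDHA and between -0.149 and 0.134 for the other 4. Within the 16 normoxic ones it was 0.734 for LDHA, 0.566 for ALDOC, 0.553 for EFNA3, 0.278 for CA9 and -0.00457 for P4HA1. In MDA-MB-231 T the log2FC in H of these genes ran from 1.63 ± 0.19 (LDHA) to 5.46 ± 0.67 (CA9), beside 2.64 for BNIP3.

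For BNIP3L the 3 most like were RNF122 (r = 0.977), LOX (0.969) and KCTD11 (0.967), a RING-type ubiquitin ligase, lysyl oxidase and a Cullin-3 adaptor. Within the 16 hypoxic libraries r was 0.92, 0.799 and 0.896, and within the 16 normoxic ones 0.806, 0.777 and 0.643. These values hold an offset between the lines, since the mean was taken over both oxygen states. The mean of each line, fraction and oxygen state was then subtracted, a step added after the data were seen. This gave r of 0.753, 0.329 and 0.812 in the hypoxic libraries and 0.544, 0.309 and -0.194 in the normoxic ones. Within single lines (n = 8), LOX had -0.202 in MCF10A and 0.889 in MDA-MB-231 in the hypoxic libraries. KCTD11 had -0.834 and 0.487 in the normoxic ones, and the other values were positive in both lines. For BNIP3 the same step gave 0.747 (hypoxic) and 0.797 (normoxic) with LDHA. In MCF10A alone these were 0.783 and 0.955, and in MDA-MB-231 alone 0.638 and 0.298. RNF122, LOX and KCTD11 had, like BNIP3L, a smaller log2FC in H T in MDA-MB-231 (1.58 ± 0.27, 1.86 ± 0.16 and 1.17 ± 0.15) than in MCF10A (2.75 ± 0.36, 3.49 ± 0.42 and 2.43 ± 0.23), values given as a description. BNIP3 and BNIP3L themselves had r = 0.892 over all 32 libraries and 0.01 within the hypoxic ones (0.292 with that step). With that step the hypoxic value was 0.624 in MCF10A alone and -0.324 in MDA-MB-231 alone. Of the other members, PINK1 (0.795) and OPTN (0.706) followed BNIP3 most, and PHB2 ran against it (-0.506).

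**Figure D5:**
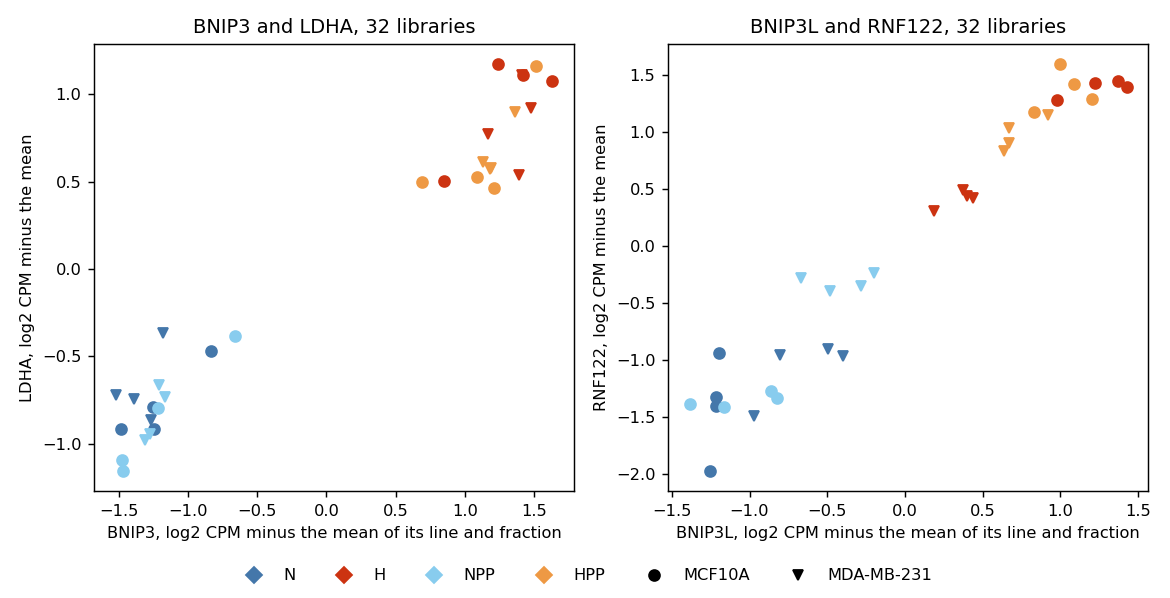
log2 CPM minus the mean of the line and fraction for BNIP3 against LDHA (left) and BNIP3L against RNF122 (right) in the 32 libraries, coloured by treatment, with circles for MCF10A and triangles for MDA-MB-231. In the left panel the libraries form a normoxic and a hypoxic cluster, and in the right panel MDA-MB-231 H lies between the normoxic libraries and the MCF10A hypoxic ones (r = 0.977 in both panels).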

How the data were processed

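Per the study's methods, the authors sequenced poly(A)-selected TruSeq libraries, mapped reads to GRCh38 with STAR and estimated counts with RSEM (the submitters' processing notes name GRCh37). Gene identifiers were taken as GRCh38. The deposited values are expected counts per gene, whole numbers and not normalised, in 1 table per line. Each column was given its sample by its barcode label, and 0 columns were left out.

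Protein-coding counts were tested with edgeR 4.0.16 under R 4.3.3 (filterByExpr, TMM, glmQLFit and glmQLFTest), with 8 residual degrees of freedom per line. All 16 libraries of a line were fitted together in 8 groups, and all 32 for differences between lines. P-values were adjusted by Benjamini-Hochberg over all genes tested (13124 in MCF10A, 13510 in MDA-MB-231, 14298 in the joint fit). The filter, fit and test were checked on simulated counts. Depth ran from 18340916 to 46032327 counts per library. log2 CPM used a prior count of 2.

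Alternatives were DESeq2 1.42.0, no filter beyond 1 read, only the libraries compared, replicate and culture blocks, counts summed with copies and PINK1-AS, and leaving out each library. The 8 genes and the lists were chosen with earlier results of these data known. Named genes were the 8, list genes called in H, up to 4 (HPP) or 2 (NPP) called list genes with the largest absolute log2FC per line and fraction, the 5 genes most like BNIP3 and 3 most like BNIP3L by Pearson correlation, and markers. Promoters came from RefSeq (GRCh38.p14).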

Additional observations from a re-analysis of the deposited data

Results flagged for a closer look

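The response of BNIP3L mRNA to hypoxia in polysomal RNA differed between the lines by the test of the difference itself, with a log2 difference (MDA-MB-231 minus MCF10A) of -1.65 ± 0.32 and an adjusted p of 0.022. The call was lost without 6 of the 8 libraries in turn (adjusted p from 0.0647 to 0.210) and with only the libraries compared (0.311). Normoxic BNIP3L was higher in MDA-MB-231 T, a call lost without 3 of its 4 libraries in turn (adjusted p from 0.0585 to 0.171), and the markers that set the libraries apart were only in part those of the labels. Their part in the difference was not tested.

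The row of BNIP3P1, a processed pseudogene of BNIP3 that no comparison used alone, held 7 to 20 counts in the 16 normoxic libraries and 44 to 122 in the 16 hypoxic ones, with a median of 15 and 78.5. The ranges do not overlap. RSEM shares reads among similar sequences, and whether these counts come from BNIP3 was not tested.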

How the results depend on the processing

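No estimate changed direction under any alternative run on a called gene. Changes by over 1.5 times in the number of the 8 genes called, over the 27 comparisons, are given for each alternative. Under DESeq2 it moved from 1 to 2 in MCF10A HPP against H in T and from 0 to 1 in P (BCL2L13 in both), and from 0 to 1 (BNIP3L) in the difference between lines for H in T and for HPP in T and in P. DESeq2 also called PINK1 in MDA-MB-231 H in P (2 to 3 genes) and PHB2 in MDA-MB-231 HPP in T (4 to 5), as did both replicate blocks below. With no filter beyond 1 read it moved from 1 to 0 in MCF10A HPP against H in T and in MDA-MB-231 HPP against H in P. That setting also gained PINK1 in MDA-MB-231 H in P (adjusted p = 0.0087) and lost BCL2L13 in MCF10A HPP in T (0.0788). With only the libraries compared, the spread rests on those libraries alone. The number called then moved from 2 to 0 in MCF10A H in P and from 1 to 0 in MCF10A HPP against H in T. In MDA-MB-231 H in T it moved from 3 to 1, with BNIP3L (adjusted p = 0.0799) and PINK1 (0.31) lost. In the difference between lines for H in P it moved from 1 to 0. Over all genes this setting called 6, 0, 44 and 0 there, so these losses are not particular to the 8 genes. It gained FKBP8 (adjusted p = 0.0055) and OPTN (0.0486) between the lines in N T, where it called 8349 of 13378 genes. Summing counts with copies and PINK1-AS moved no count by over 1.5 times.

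With the replicate number as a block, the count moved from 0 to 1 in MCF10A HPP against H in P and from 0 to 1 in the difference between lines for H in T. With a block within each fraction it moved to 1 in both of these and from 1 to 2 in MCF10A HPP against H in T. Smaller moves follow, with the genes called in all against those called without a block. PINK1 was gained with the replicate block in MDA-MB-231 H in P (adjusted p = 0.022, 611 against 310). With it PHB2 was gained in MDA-MB-231 HPP in T (0.033, 2482 against 1786) and lost between the lines in N T (0.067, 5572 against 5826). BCL2L13 was gained within fractions in MCF10A HPP in P (0.029, 4785 against 2910). Deviations of same-numbered libraries correlated from -0.641 to 0.778 over 28 pairs of groups in MCF10A and from -0.187 to 0.348 in MDA-MB-231. Between T libraries of MCF10A they ran from 0.283 to 0.778. This is a hint from the data and not the design, and with 2 numbers per group the numbers were not taken as pairs.

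Leaving out 1 library at a time gave 1 to 2 called genes for MCF10A H in T and in P, 2 to 3 for MCF10A HPP in P, 0 for MCF10A HPP against H in T, 1 to 2 for MDA-MB-231 H in T and in P, 0 for MDA-MB-231 HPP against H in P, 0 to 1 for the difference between lines in H in P, and 2 to 3 for the lines in N T. It moved 147 of the 183 estimates that did not pass the test, and 2 of the 33 that did, by over 1.5 times or to the other sign. The lone library left in a group was assumed to vary like the others. Wherever leaving out a library lost a call, fewer genes were also called among all genes tested. Such losses are therefore not particular to the genes studied here. By Spearman in place of Pearson correlation, 1 of the 5 genes most like BNIP3 (LDHA) and 1 of the 3 most like BNIP3L (RNF122) remained. The causes of these changes were not tested.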
